A study of Mus musculus with 4 samples.

Results

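The genes described here are 41 genes of the cell cycle and of DNA replication, of 55385 gene identifiers in the expression table. They were listed by name, with earlier results of these data known. They fall into 16 genes used around S phase, 20 genes used in G2 and mitosis and 5 genes that act in G1. All 41 were found and all 41 passed the filter on low values (a mean over the 4 libraries not under 10 normalised counts), as did 19479 genes in all. RNA was sequenced from lymphatic endothelial cells (LECs), the cells that line lymphatic vessels, sorted as CD45- PDPN+ CD31+ cells from the trunk of mouse embryos at E13.5 without inner organs, limbs, tail or cranial tissue. By the study's methods, the cranial tissue taken off was that above the tongue. There were 2 control libraries and 2 libraries labelled KO, each from a pool of 8 to 10 embryos. The control pools are given as WT in the labels, and the study uses the name *Osr1* controls for *Osr1* +/+ and *Osr1* GCE/+ embryos. The KO pools are labelled *Osr1*-KO and come from *Osr1* GCE/GCE embryos, whose GCE reporter allele is carried by every cell of the embryo and not only by LECs. No other allele, treatment or age separates the groups. Which embryos went into a pool, and whether replicate numbers mark a shared day, is not stated, so the tests measure only the spread between pools.

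Cells that divide copy their DNA in S phase and separate the copies in mitosis. D-type cyclins drive the kinases CDK4 and CDK6 in G1, which releases E2F transcription factors from RB family proteins, and E2F then switches on genes for DNA replication. Genes of mitosis are switched on later by the MuvB complex with B-MYB and FOXM1, at promoters that often carry CCAAT boxes and a short element called CHR. LECs of the midgestation embryo form sprouting and growing vessels, and VEGF-C acting on its receptor *Flt4* is the best known signal for their proliferation. The S-phase and the mitotic genes are described separately.

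Letters for these elements were looked up in 300 bases around the start of each gene, from 250 bases before to 50 after it, in RefSeq promoters on GRCm38.p6. Of the 41 genes, 32 had such a window, as had 27025 genes in all. The E2F letters searched were TTTCCCGC, TTTCGCGC, TTTGCCGC and TTTGGCGC, the CHR letters were TTTGAA and the CCAAT box letters were CCAAT, each on both strands. Overlapping matches on opposite strands were counted separately. E2F letters were in 6 of 13 S-phase windows (46.2%), in 1 of 16 mitotic windows (6.25%) and in 2.61% of all windows. CHR letters were in 1 of 13 S-phase windows (7.69%), in 11 of 16 mitotic windows (68.8%) and in 20.2% of all windows. CCAAT letters were in 8 of 13 S-phase windows (61.5%), 14 of 16 mitotic windows (87.5%) and 41.1% of all windows. Among the 3 windows of G1 genes none held E2F or CHR letters and 2 held CCAAT letters. A match to a few letters is a description of the sequence and not a measured binding site.

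**Figure D1:**
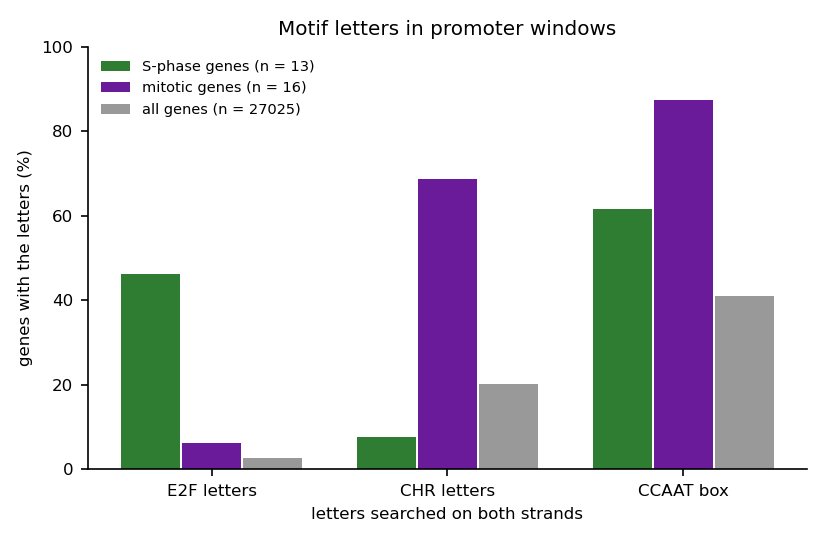
Share of genes with a promoter window (percent, y axis) that hold the E2F, CHR or CCAAT letters, as bars for S-phase genes, mitotic genes and all genes with a window. The E2F letters stand out in the S-phase windows at 46.2% and the CHR letters in the mitotic windows at 68.8%.

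The promoters printed here show this contrast, from 160 bases before the start to 30 after it, 5′ to 3′ on the strand of the gene. Matches that lie wholly within these bases are in capitals. Further matches of the searched window, as in *Ccnb2*, *Ube2c* and *Cdkn1b*, lie outside the printed bases or are cut by their ends and are not marked. *Mcm5* and *Mcm6* encode subunits of the replicative helicase and represent S-phase genes with E2F letters. *Rrm2*, the small subunit of ribonucleotide reductase, represents S-phase genes without them. *Cdk1*, *Ccnb2* and *Ube2c* represent mitotic genes with CHR letters, and *Cdkn1b*, the CDK inhibitor p27, is the gene with the largest difference between groups.
Mcm5: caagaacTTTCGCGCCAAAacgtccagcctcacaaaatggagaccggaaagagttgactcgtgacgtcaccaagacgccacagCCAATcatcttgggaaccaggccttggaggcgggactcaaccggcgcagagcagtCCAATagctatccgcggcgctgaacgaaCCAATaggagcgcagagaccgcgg
Mcm6: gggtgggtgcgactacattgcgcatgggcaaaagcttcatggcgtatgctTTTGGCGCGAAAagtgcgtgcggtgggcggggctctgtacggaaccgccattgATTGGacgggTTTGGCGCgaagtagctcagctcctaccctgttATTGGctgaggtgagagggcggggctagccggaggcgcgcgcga
Rrm2: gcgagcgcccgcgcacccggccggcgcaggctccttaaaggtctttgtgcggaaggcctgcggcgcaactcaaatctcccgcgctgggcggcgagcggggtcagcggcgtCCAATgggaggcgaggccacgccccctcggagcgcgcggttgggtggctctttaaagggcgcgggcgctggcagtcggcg
Cdk1: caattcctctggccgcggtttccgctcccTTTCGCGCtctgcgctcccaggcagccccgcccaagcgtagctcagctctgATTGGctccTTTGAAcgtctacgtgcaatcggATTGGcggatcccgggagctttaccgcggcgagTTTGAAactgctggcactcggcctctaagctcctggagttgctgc
Ccnb2: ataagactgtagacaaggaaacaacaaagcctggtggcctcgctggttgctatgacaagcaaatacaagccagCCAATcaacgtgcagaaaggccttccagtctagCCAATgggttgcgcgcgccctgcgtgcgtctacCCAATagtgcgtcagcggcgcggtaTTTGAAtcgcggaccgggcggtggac
Ube2c: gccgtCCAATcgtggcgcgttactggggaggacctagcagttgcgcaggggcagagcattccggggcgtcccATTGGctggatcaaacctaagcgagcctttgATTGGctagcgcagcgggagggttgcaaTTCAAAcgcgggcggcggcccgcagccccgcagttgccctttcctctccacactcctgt
Cdkn1b: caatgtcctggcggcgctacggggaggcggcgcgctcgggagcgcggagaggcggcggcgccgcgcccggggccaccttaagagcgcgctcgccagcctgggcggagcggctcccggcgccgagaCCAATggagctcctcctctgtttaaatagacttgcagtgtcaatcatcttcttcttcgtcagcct
The window of *Mcm5* lies at chr8:75109349-75109538 on the plus strand, that of *Mcm6* at chr1:128359676-128359865 on the minus strand and that of *Rrm2* at chr12:24708094-24708283 on the plus strand. The window of *Cdk1* lies at chr10:69352883-69353072 on the minus strand, that of *Ccnb2* at chr9:70421525-70421714 on the minus strand and that of *Ube2c* at chr2:164769769-164769958 on the plus strand. That of *Cdkn1b* lies at chr6:134920241-134920430 on the plus strand. In *Mcm5* and in *Mcm6* the first capitals are a pair of E2F matches on opposite strands that share bases, and *Mcm6* has a further E2F match closer to its start. *Cdk1* held both kinds of letters, a single E2F match ahead of 2 CHR matches.

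The libraries held 53438492 and 36535451 reads in genes in control replicates 1 and 2, and 37865172 and 31586765 in replicates 1 and 2 labelled KO. *Osr1* itself read 32.8 and 30.4 normalised counts in the control libraries and 168 and 303 in the libraries labelled KO, so it was higher where the label names a knockout (log2 fold change 2.80, 95% interval 2.09 to 3.52, limma adjusted p = 0.0262). Reads were counted per gene, without regard to whether they came from the GCE or the wild-type allele, so this value is no check of the labels. Markers of some other cell types moved with the groups. The summed level of 12 fibroblast markers was 2542 and 2047 TPM (read counts per length, scaled to the same total in each library) in the control libraries and 1261 and 1449 TPM in those labelled KO, and 5 of the 12 were called lower. Over all 19479 genes tested, limma called 341 lower and 221 higher (2.89%), by the thresholds given below. Germ cell markers summed to 806 and 1237 TPM in the control libraries against 422 and 482 TPM, with 5 of 10 called lower, and skeletal muscle markers to 234 and 250 TPM against 114 and 123 TPM, with 5 of 10 called lower. Lymphatic markers summed to 1957 and 2635 TPM in the control libraries and to 3530 and 3400 TPM in the libraries labelled KO. Of these, 4 of 7 tested were called higher, among them the sorting marker *Pdpn*. Markers shared by all endothelium were also higher, at 2135 and 2146 TPM in the control libraries against 2731 and 2478 TPM, with 2 of 6 called higher. Blood endothelial markers summed to 984 and 827 TPM in the control libraries against 1035 and 947 TPM. Of those 8, 1 was called higher and 1 lower. Markers of CD45-positive blood cells, which the sort was set to remove, summed to between 86.4 and 101 TPM. Red blood cell markers did not follow the groups, with 2404 and 1611 TPM in the control libraries and 2271 and 1338 TPM in those labelled KO. Neuron and glia markers summed to 228 and 179 TPM in the control libraries against 120 and 153 TPM. Epithelial markers summed to 240 and 197 TPM in the control libraries against 81.7 and 200 TPM. Limma called none of the red blood cell, neuron and glia or epithelial markers. At an unadjusted limma p under 0.05, 5 of 7 neuron and glia and 3 of 6 epithelial markers were lower. None of these was higher, and 21.4% of all genes were under 0.05. DESeq2 called *Elavl3*, *Stmn2*, *Tubb3*, *Epcam* and *Krt18* of these lists, all lower, where it called 7.54% of all genes. The part of these cells in the results on cell cycle genes was not tested.

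The cell cycle genes were expressed in every library. Their mean levels ran from 21.8 TPM for *Gins2* to 285 TPM for *Pcna*, and the lowest read count of any of them in any library was 800. Summed over the 16 S-phase genes the level was 1706 and 1994 TPM in control replicates 1 and 2 and 1774 and 1788 TPM in the libraries labelled KO. Summed over the 20 mitotic genes it was 1953 and 2363 TPM in the control libraries and 2121 and 2150 TPM in those labelled KO. In both groups of genes the KO libraries lay close together and between the control libraries. The 5 G1 genes summed to 555 and 512 TPM in the control libraries and 519 and 525 TPM in those labelled KO. In RNA of a sorted pool, fewer dividing cells and less RNA per dividing cell cannot be told apart.

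**Figure D2:**
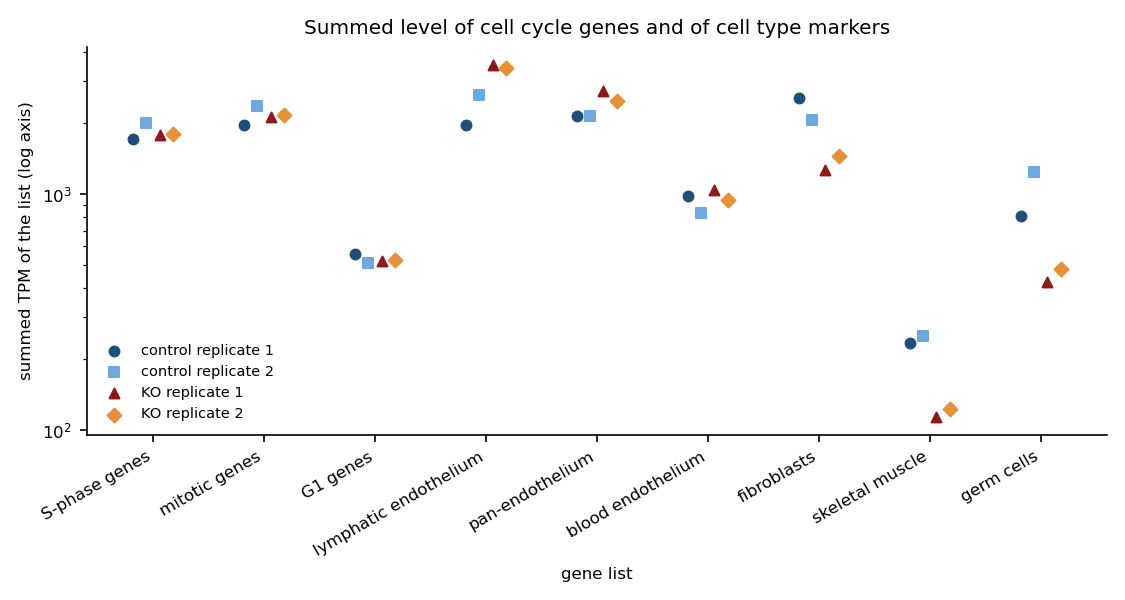
Summed level (TPM, log axis) of the S-phase, mitotic and G1 genes and of marker genes of 6 cell types, with 1 point per library. Control replicate 2 is the highest library for S-phase genes (1994 TPM) and for mitotic genes (2363 TPM). The KO libraries are lower for fibroblast, skeletal muscle and germ cell markers and higher for lymphatic and pan-endothelial markers.

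The main question was whether expression of these genes differed between LECs of the *Osr1*-deficient embryos and of the controls. None of the 41 passed the thresholds for a call, an adjusted p under 0.05, a log2 fold change of 0.3 or more in either direction and a mean over 1 TPM in limma, which called 562 of 19479 genes (2.89%), 341 lower and 221 higher. At an unadjusted p under 0.05 there were 5 of 41, or 12.2%, against 21.4% of all genes tested. These were *Rrm2*, *Ccna2*, *Birc5* and *Cdkn1b* with higher values in the libraries labelled KO and *Ccnd3* with lower values. edgeR on recovered reads also called none of the 41 (2.71% of all genes), and DESeq2 on recovered reads called *Cdkn1b* and *Ccnd3* (7.54% of all genes). DESeq2 was the test that the study used, with the same thresholds. Both KO libraries were above both control libraries for 15 of the 41 genes, where 24.7% of all genes were, and below them for 4, where 28.9% of all genes were. For the other 22 genes the groups overlapped. Leaving out a library moved the count of all genes called from 562 to 864 without control replicate 1, 1460 without control replicate 2, 25 without replicate 1 labelled KO and 289 without replicate 2 labelled KO, and of the 41 genes only *Cdkn1b* was called in any of these fits. The median absolute log2 difference was 0.11 over the 41 genes and 0.22 over all genes tested. The 41 genes had higher levels, with a median of 92.1 TPM against 10.9 TPM. These comparisons with all genes were not matched for level.

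The intervals bound what these libraries allow. The 95% intervals of the 41 log2 differences together ran from -0.60 to 0.63. The median distance from estimate to bound was 0.23, against 0.40 over all genes tested, which were not matched for level. A gene that was not called is therefore not shown to have equal levels in the groups. For S-phase genes the median log2 difference was 0.014, with 8 genes above 0 and 8 below, and for mitotic genes it was 0.080, with 14 above 0 and 6 below. With scaling to library totals these medians were -0.058 and 0.0074, beside -0.092 over all genes. The median over all genes tested was -0.020.

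**Figure D3:**
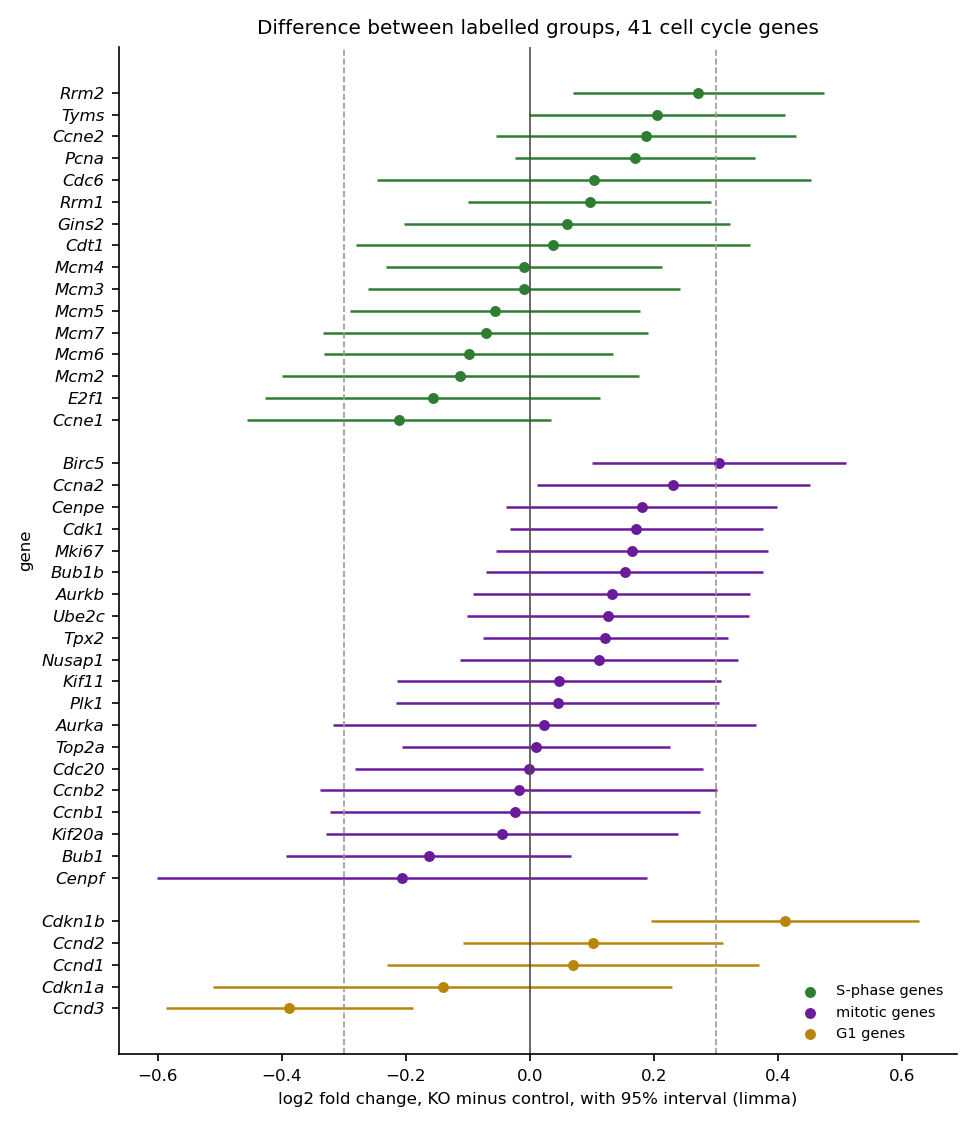
Log2 difference between the libraries labelled KO and the control libraries (x axis) for each of the 41 genes, with its 95% interval from limma, sorted by size within S-phase, mitotic and G1 genes. Dashed lines mark the fold threshold of 0.3. The values run from -0.39 for *Ccnd3* to 0.41 for *Cdkn1b*, and none of the genes passed the thresholds in limma.

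S phase begins with the licensing of origins, where the MCM proteins are loaded as a ring that later unwinds DNA. The MCM genes had mean levels of 86.7 TPM (*Mcm2*) to 223 TPM (*Mcm4*). *Mcm2* read 5647 and 7320 normalised counts in control replicates 1 and 2 and 5928 and 5972 in the libraries labelled KO. *Mcm6* had 9389 and 11151 in the control libraries and 9554 and 9558 in those labelled KO. For *Mcm7* the values were 5450 and 6771 in the control libraries and 5653 and 5915 in those labelled KO. In each of these genes the first control library was the lowest, the second was the highest and the KO libraries lay between. The same order held for *Mcm3*, *Mcm4* and *Mcm5*, so that all 6 MCM genes overlapped between groups. Over all genes tested, the groups were apart for 53.6%, and the KO libraries lay between the controls for 11.1%. Their log2 differences lay between -0.11 for *Mcm2* and -0.0092 for *Mcm4*, with a median of -0.064, although those of *Mcm3* and *Mcm4* turned to 0.00038 and 0.00044 with TMM scaling and all 6 turned positive without control replicate 2. The summed level of the 6 genes was 959 and 1182 TPM in the control libraries and 973 and 975 TPM in the libraries labelled KO.

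Loading of the MCM ring needs *Cdc6* and *Cdt1*, and *Gins2* is a subunit of the GINS complex that turns the ring into the active helicase. *Cdc6* read 1142 and 1582 normalised counts in the control libraries and 1445 and 1444 in those labelled KO. *Cdt1* had 2135 and 2740.0 in the control libraries and 2680 and 2298 in those labelled KO. Both placed the KO libraries between the controls. *Gins2* also overlapped, with 924 and 881 normalised counts in the control libraries and 894 and 991 in those labelled KO. The log2 differences of the 3 genes lay between 0.037 and 0.10, and their adjusted p between 0.742 and 0.908.

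The genes that feed and hold the replication fork showed another order. *Pcna* encodes the sliding clamp of the DNA polymerases, *Rrm1* and *Rrm2* the subunits of ribonucleotide reductase, which makes deoxyribonucleotides, and *Tyms* thymidylate synthase, which makes the thymidine nucleotide. *Rrm2* read 3737 and 3959 normalised counts in the control libraries and 4584 and 4706 in those labelled KO. *Pcna* had 6688 and 6604 in the control libraries and 7332 and 7623 in those labelled KO. For *Tyms* the values were 2244 and 2255 in the control libraries and 2546 and 2642 in those labelled KO. In all 3 the KO libraries were above both controls, which lay close together. *Rrm1* had 8203 and 8717 in the control libraries and 9033 and 9046 in those labelled KO, again without overlap. Both KO libraries were above both controls for 24.7% of all genes tested. The log2 difference was 0.27 ± 0.088 (SE) for *Rrm2*, with a limma adjusted p of 0.129. It was 0.17 for *Pcna*, 0.21 for *Tyms* and 0.096 for *Rrm1*, and the adjusted p of these 3 lay between 0.235 and 0.562. None of the 4 was a call, and all 4 stayed above 0 under the 17 alternatives computed, *Rrm2* between 0.20 and 0.31. Under most of these the sign could not turn. Blocks, fit options, filters and thresholds do not change the estimate. Fits without a library cannot turn its sign where the groups are apart. Only other scalings, edgeR and DESeq2 could have turned it.

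Entry into S phase is driven by E-type cyclins with CDK2 and by E2F1, which induces cyclin E and itself. *Ccne1* read 1315 and 1484 normalised counts in the control libraries and 1207 and 1207 in those labelled KO. *E2f1* had 1159 and 1386 in the control libraries and 1135 and 1140 in those labelled KO. In both genes the KO libraries were lower than both controls, for *E2f1* by little next to the gap between the controls. *Ccne2*, the other E-type cyclin gene, went the other way, with 1322 and 1177 in the control libraries and 1423 and 1418 in those labelled KO. The log2 differences were -0.21 for *Ccne1*, -0.16 for *E2f1* and 0.19 for *Ccne2*, with limma adjusted p of 0.302, 0.491 and 0.351. Without control replicate 2 they were -0.12, -0.028 and 0.10. The difference between the cyclin genes themselves was not tested.

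Among the mitotic genes, *Top2a* and *Mki67* had the highest mean levels per length, 232 and 210.4 TPM. *Mki67* encodes the proliferation marker Ki-67, a coat of mitotic chromosomes, and *Top2a* the topoisomerase that untangles them. *Mki67* read 19248 and 22056 normalised counts in the control libraries and 23753 and 22476 in those labelled KO. *Top2a* had 20005 and 23008 in the control libraries and 21370 and 21841 in those labelled KO. The groups were apart for *Mki67*, with a log2 difference of 0.17 ± 0.096 (SE) and a limma adjusted p of 0.363, and overlapped for *Top2a*, with a difference of 0.010. Without control replicate 1 the difference of *Mki67* was 0.067, and without control replicate 2 it was 0.26.

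CDK1 with the A- and B-type cyclins is the kinase that starts mitosis. *Ccna2* read 4557 and 5194 normalised counts in the control libraries and 5739 and 5685 in those labelled KO. *Cdk1* had 3574 and 3379 in the control libraries and 3977 and 3855 in those labelled KO. In both genes the KO libraries were above both controls, with log2 differences of 0.23 for *Ccna2* and 0.17 for *Cdk1* and adjusted p of 0.214 and 0.309. *Ccnb1*, by contrast, overlapped, with 3670 and 4801 in the control libraries and 4044 and 4214 in those labelled KO. *Ccnb2* did so as well, with 2556 and 3444 in the control libraries and 2938 and 2922 in those labelled KO. The B-type cyclin genes had log2 differences of -0.024 and -0.018. Their largest value was in control replicate 2 and their smallest in control replicate 1.

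Survivin, encoded by *Birc5*, and Aurora B, encoded by *Aurkb*, are partners in the chromosomal passenger complex, which corrects the attachment of chromosomes to the spindle. *Birc5* read 2122 and 2171 normalised counts in the control libraries and 2665 and 2640 in those labelled KO. Its log2 difference of 0.31 ± 0.090 (SE) was the largest among mitotic genes, with a 95% interval of 0.10 to 0.51, and did not pass the threshold (limma adjusted p = 0.103). *Aurkb* had 1528 and 1640.0 in the control libraries and 1705 and 1766 in those labelled KO, without overlap and with a difference of 0.13. *Aurka* and *Plk1*, kinases of the centrosome and of mitotic entry, overlapped between groups with differences of 0.024 and 0.045. For both, the lowest library was control replicate 1 and the highest control replicate 2.

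The spindle checkpoint holds anaphase until every chromosome is attached, and the anaphase-promoting complex then acts with its activator *Cdc20* and its ubiquitin-conjugating enzyme *Ube2c*. *Bub1* and *Bub1b*, kinase genes of the checkpoint, went in opposite directions. *Bub1* read 4475 and 5207 normalised counts in the control libraries and 4263 and 4362 in those labelled KO. *Bub1b* had 3874 and 4417 in the control libraries and 4517 and 4682 in those labelled KO. Each was without overlap between groups, with log2 differences of -0.16 and 0.15 and adjusted p of 0.396 and 0.413. Without control replicate 2 the difference of *Bub1* was -0.054, and without control replicate 1 that of *Bub1b* was 0.058. *Cdc20* had a difference of -0.0012, which turned to 0.0084 with TMM scaling, and *Ube2c* one of 0.13, and both overlapped.

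Of the 6 genes of the kinetochore and spindle, *Cenpf* had the widest gap between controls. It read 5939 and 8429 normalised counts in control replicates 1 and 2 and 5839 and 6444 in the libraries labelled KO. The log2 difference was -0.21, with a 95% interval of -0.60 to 0.19, and without control replicate 2 it was 0.047. *Cenpe*, the gene of a kinetochore motor, had 5390 and 5998 in the control libraries and 6201 and 6695 in those labelled KO, a difference of 0.18. *Tpx2* and *Nusap1*, which build spindle microtubules, were likewise without overlap, with differences of 0.12 and 0.11. *Kif11*, the motor that pushes the spindle poles apart, and *Kif20a*, a motor of cytokinesis, overlapped with differences of 0.047 and -0.045. Limma gave the 6 genes adjusted p between 0.321 and 0.875.

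**Figure D4:**
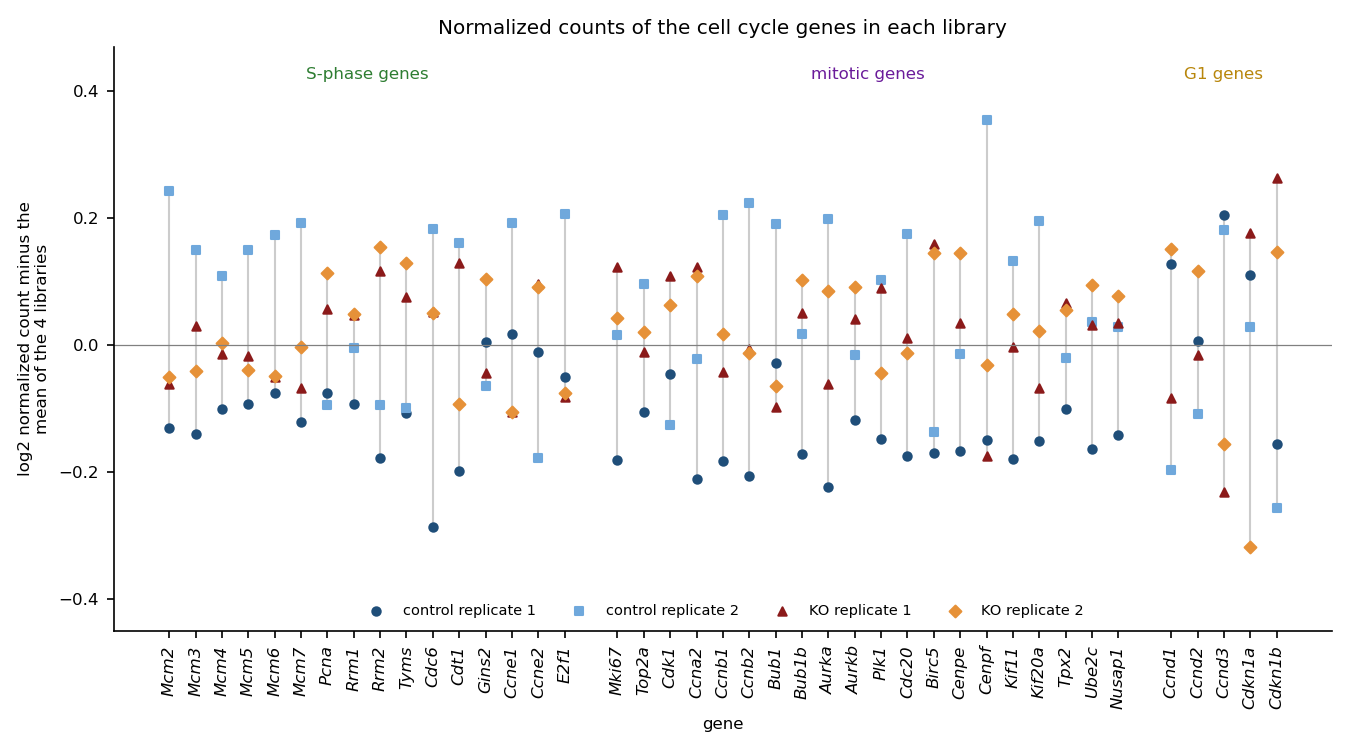
Normalised count of each of the 41 genes in each library, as the log2 value minus its mean over the 4 libraries (y axis), with S-phase, mitotic and G1 genes along the x axis. Control replicate 2 is the highest library for all 6 MCM genes, while *Rrm1*, *Rrm2*, *Tyms* and *Pcna* are higher in both libraries labelled KO.

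By the median over S-phase genes and over mitotic genes, the control libraries stood further apart than the KO libraries. Among S-phase genes, *Pcna*, *Tyms* and *Gins2* had the larger gap between the KO libraries. Control replicate 2 exceeded replicate 1 in 13 of 16 S-phase genes, with a median log2 gap of 0.23, and in 19 of 20 mitotic genes, with a median of 0.20. Over all genes tested it did so in 50.5%, with a median of 0.0029. Between replicates 2 and 1 labelled KO the median gap was 0.0043 in S-phase genes and 0.037 in mitotic genes. The KO libraries lay between the controls in 8 S-phase and 8 mitotic genes and in none of the G1 genes, 16 of 41 or 39.0%, against 11.1% of all genes tested. In 26 of the 41 genes (63.4%, against 46.2% of all genes) the gap between controls was larger than the difference between groups. Without control replicate 2 the median log2 difference of S-phase genes was 0.10 and that of mitotic genes 0.19, and without control replicate 1 these were -0.14 and -0.027. Control replicate 2 also had the higher summed level of germ cell markers (1237 against 806 TPM) and of lymphatic markers (2635 against 1957 TPM). Its summed level of fibroblast markers was lower (2047 against 2542 TPM). Red blood cell markers were lower in replicate 2 of both groups. They summed to 1611 against 2404 TPM in the controls and to 1338 against 2271 TPM in the libraries labelled KO. The part of these marker lists in the gap was not tested.

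**Figure D5:**
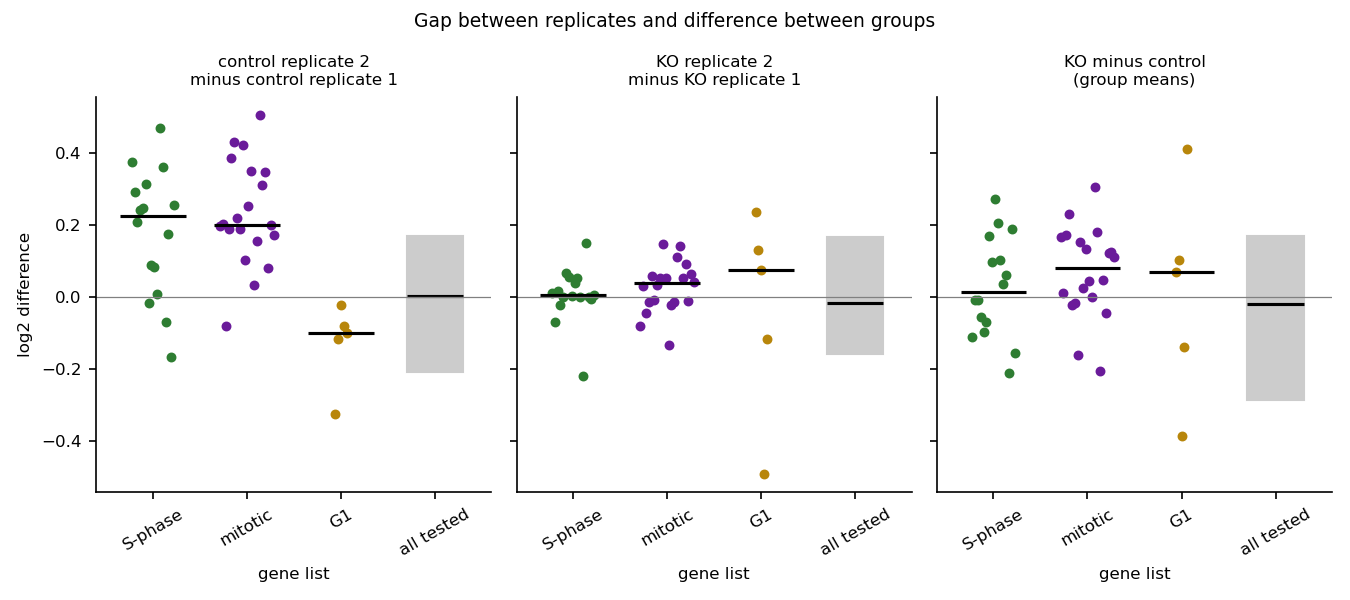
Log2 gap between replicates 2 and 1 of the control libraries (left) and of the libraries labelled KO (middle), and log2 difference between groups (right), with 1 point per gene, lines at the medians and grey boxes for the middle 50% of all genes tested. The control gap is above 0 for 13 of 16 S-phase and 19 of 20 mitotic genes, with medians of 0.23 and 0.20, and the KO gap has medians of 0.0043 and 0.037.

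The gap between controls was also described by promoter letters. The 6 S-phase genes with E2F letters, *Mcm3*, *Mcm5*, *Mcm6*, *Mcm7*, *Cdc6* and *Cdt1*, had control gaps of 0.24 to 0.47 on the log2 scale, with a median of 0.30. The 7 without them, *Mcm2*, *Pcna*, *Rrm1*, *Rrm2*, *Tyms*, *Ccne1* and *E2f1*, had gaps of -0.018 to 0.37, with a median of 0.088. Between groups of libraries the first set had a median log2 difference of -0.033 and the second one of 0.096. The 11 mitotic genes with CHR letters had a median control gap of 0.25 and a median group difference of 0.045, and the 5 without them 0.17 and 0.11. Their control gaps ran from -0.081 to 0.51 with CHR letters and from 0.033 to 0.39 without, so the ranges overlapped. The set with E2F letters holds *Mcm3*, *Mcm5*, *Mcm6* and *Mcm7*, and *Mcm2*, without the letters, had a gap of 0.37. Letters and membership in the MCM family were not tested apart. These sets are small, their genes share libraries, and the values are given as a description.

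The G1 genes included those closest to a call. *Cdkn1b*, which encodes p27, an inhibitor of cyclin-dependent kinases that holds cells in G1, lies at chr6:134920401-134925513 on mm10. It read 2867 and 2673 normalised counts in the control libraries and 3833 and 3537 in those labelled KO. The KO libraries were above both controls by more than either pair of replicates differed. The log2 difference was 0.41 ± 0.095 (SE), a fold of 1.14 to 1.54 at the bounds of the 95% interval, with a limma adjusted p of 0.0589. It was called by DESeq2 (adjusted p = 0.0097) and without control replicate 1 (log2 difference 0.46, adjusted p = 0.0439), and over the 17 alternatives its adjusted p ran from 0.0097 to 0.322. *Cdkn1a*, the gene of the related inhibitor p21 and a target of p53, had 3895 and 3680 in the control libraries and 4076 and 2894 in those labelled KO. It overlapped, with a log2 difference of -0.14 and a gap of -0.49 between the KO libraries.

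*Ccnd3*, which encodes cyclin D3, lies at chr17:47505051-47599691 on mm10. It read 5345 and 5258 normalised counts in the control libraries and 3947 and 4158 in those labelled KO, so that both KO libraries were lower by more than the replicates differed. Its log2 difference was -0.39 ± 0.087 (SE), with a 95% interval of -0.59 to -0.19 and a limma adjusted p of 0.0554. It was called by DESeq2 (adjusted p = 0.0068) and with scaling to library totals (log2 difference -0.46, adjusted p = 0.0339), and over the 17 alternatives its adjusted p ran from 0.0068 to 0.271. The other D-type cyclin genes overlapped. *Ccnd1* had 7432 and 5933 in the control libraries and 6423 and 7560.0 in those labelled KO, and *Ccnd2* had 16397 and 15129 against 16147 and 17689. Their log2 differences were 0.070 and 0.10, with adjusted p of 0.808 and 0.568. The difference of *Ccnd3* from them was not tested. *Ccnd3* shares 361 bases of exon with *Bysl*, and no strand setting is given for the counting, so reads there may come from either gene. *Gins2*, *Kif20a* and *Ccnd1* likewise share 2758, 1271 and 1100.0 bases of exon with *Gse1*, *Cdc23* and *LTO1*. *Ccne2*, *Ube2c* and *Ccna2* share 609, 592 and 510.0 bases with *Ints8*, the muscle gene *Tnnc2* and *Exosc9*, and *Mcm7*, *Ccnd2*, *Nusap1* and *Cdc20* share 385 bases or fewer with other genes.

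Other genes of the same pathways, in lists fixed by name, are counted here, against shares over all genes of 2.89% called by limma, 7.54% called by DESeq2 and 21.4% at an unadjusted p under 0.05. Of 46 further genes of the replication fork and origins, none was called by limma, with a median log2 difference of -0.070 and an unadjusted p under 0.05 for 1 gene with higher and 4 with lower values, and DESeq2 called 1, the chromatin remodeller gene *Hells*, lower. Of 56 further genes of the spindle, kinetochore and cytokinesis, none was called, with a median of 0.012 and an unadjusted p under 0.05 for 2 genes, both with higher values, and DESeq2 called 1, the CDK subunit gene *Cks1b*, higher. Of 25 RB, E2F and G1 kinase genes, none was called, with a median of 0.087 and an unadjusted p under 0.05 for 5 genes with higher and 2 with lower values, and DESeq2 called the RB family gene *Rbl1* higher and *Mycn* lower. edgeR called no gene of these 3 lists.

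Of 16 genes of CDK inhibitors and quiescence, limma and edgeR called 1, *Cdkn1c*, which encodes p57, the third inhibitor of the p27 family and an imprinted growth regulator. It read 19580 and 17079 normalised counts in the control libraries and 11822 and 13537 in those labelled KO, a log2 difference of -0.53 ± 0.11 (SE) (limma adjusted p = 0.0434). The call was lost without control replicate 1 (-0.43, adjusted p = 0.098), without replicate 1 labelled KO (-0.43, adjusted p = 0.188), with TMM scaling (adjusted p = 0.0505), with a replicate block (0.081) and in limma without the trend and robust options (0.238). *Cdkn1c* thus fell while the value of *Cdkn1b* was higher in the libraries labelled KO. That list had a median of -0.20, with 4 of 16 genes above 0. DESeq2 called *Cdkn1c* and the growth arrest gene *Gas1*, both lower. Of 24 targets of p53, limma and edgeR called 1, *Plk2*, a kinase gene of centriole duplication and stress responses. DESeq2 called *Plk2* higher and *Ddb2*, *Pmaip1* and *Sesn2* lower. *Plk2* read 17580 and 17899 in the control libraries and 23384 and 23711 in those labelled KO, a log2 difference of 0.41 ± 0.082 (SE) (limma adjusted p = 0.0434). This call was lost whichever library was left out, with log2 differences of 0.40 to 0.42 and adjusted p of 0.0787 to 0.159. It was also lost with a replicate block (adjusted p = 0.107) and in limma without the trend and robust options (0.234), and the median of the list was 0.0080. Fibroblast markers moved in the same direction as *Cdkn1c*, as given above, and the part of other cells in its value was not tested.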

How the data were processed

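The table deposited by the authors holds signal values, namely gene-level counts scaled with DESeq2 size factors. By the study's methods the authors pooled LECs of 8 to 10 embryos per library, prepared libraries with a TruSeq kit, aligned reads to mm10 with STAR and counted them with featureCounts, versions and strand setting not given in the sources used here. Of 55385 gene IDs 55144 were found in GENCODE M21, which gave symbols and exon lengths for TPM. Whole reads were recovered from each library's step size, and 100% of values were whole within 0.001 reads. Size factors were 0.807 to 1.40.

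Groups were compared with limma 3.58.1 (trend and robust options, R 4.3.3) on log2(normalised count + 1), which understates changes of low genes, for all genes whose mean reached 10, with Benjamini-Hochberg adjustment over all of them. A call needed an adjusted p under 0.05, a log2 fold change of 0.3 or more in either direction and a mean TPM over 1. The study used these thresholds with DESeq2, and limma took its place here as the main test. edgeR 4.0.16 and DESeq2 1.42.0 on recovered reads, other scalings, filters, pseudocounts of 0.5 and 5, a replicate block and fits without each library were alternatives. The fitting functions were run on simulated counts, where changed genes had larger differences than the 41 members and genes varied independently. That run does not show how differences of the size seen here would be called. All 41 members are named, and of other lists the called genes. Other genes called by DESeq2 alone were named after their values were seen. The members and lists were chosen with earlier results of these data known.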

Additional observations from a re-analysis of the deposited data

How the results depend on the processing

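Genes called over all genes tested numbered 562 (341 lower, 221 higher). They were 125 (96 lower, 29 higher) with a replicate block, 1469 (902, 567) with DESeq2, 1120 (695, 425) with no filter on low values, 1488 (916, 572) at an adjusted p under 0.1 and 0 (0, 0) in limma without the trend and robust options. Leaving out each library in turn gave 25 to 1460 genes (12 to 1069 lower, 13 to 391 higher), the lone library of a group being taken to vary like the other group. The replicate numbers name no shared litter or day, and the gaps between replicates of the 2 groups correlated at -0.118 over genes, so they were not taken as pairs. A crossed pairing, added after seeing the data, gave 1282 genes (766 lower, 516 higher). The replicate block changed no call among the 41 genes and lost those of *Cdkn1c* and *Plk2*.

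No S-phase or mitotic gene was called under any of the 17 alternatives. Among G1 genes, *Cdkn1b* and *Ccnd3* were called, 2 genes, with DESeq2, with no filter, at an adjusted p under 0.1 and with the crossed pairing, 1 (*Ccnd3*) with library totals and 0 to 1 with a library left out. The G1 median was -0.0027 with library totals and -0.093 to 0.17 with a library left out, and the S-phase median was -0.058 and -0.14 to 0.10 in the same order. The mitotic median was 0.0074 with library totals. Library totals moved the median of all genes from -0.020 to -0.092.

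Of 697 values of the 41 genes under alternatives, 648 kept direction and call. Another 10 passed the threshold, and 39, in 20 genes, turned direction, none beyond 0.20. Blocks, fit options, filters and thresholds leave the log2 difference unchanged, so under these no gene could turn direction. With TMM scaling *Mcm3* was 0.00038, *Mcm4* 0.00044 and *Cdc20* 0.0084. With library totals *Cdt1* was -0.035, *Gins2* -0.012, *Top2a* -0.062, *Aurka* -0.048, *Plk1* -0.027, *Kif11* -0.025 and *Ccnd1* -0.0027. With each library left out, the log2 differences ran from -0.30 to 0.075 (*Mcm2*), -0.15 to 0.14 (*Mcm3*), -0.11 to 0.10 (*Mcm4*), -0.18 to 0.065 (*Mcm5*), -0.22 to 0.026 (*Mcm6*), -0.23 to 0.085 (*Mcm7*), -0.13 to 0.34 (*Cdc6*), -0.14 to 0.22 (*Cdt1*), -0.015 to 0.13 (*Gins2*), -0.091 to 0.11 (*Top2a*), -0.22 to 0.17 (*Ccnb1*), -0.23 to 0.20 (*Ccnb2*), -0.19 to 0.23 (*Aurka*), -0.080 to 0.17 (*Plk1*), -0.18 to 0.17 (*Cdc20*), -0.46 to 0.047 (*Cenpf*), -0.11 to 0.20 (*Kif11*), -0.22 to 0.13 (*Kif20a*), -0.093 to 0.23 (*Ccnd1*) and -0.39 to 0.11 (*Cdkn1a*).

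Every one of the 41 genes had at least 800 reads in every library.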
